A study of Mus musculus with 22 samples.

Results

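Genomic imprinting is the silencing of 1 parental copy of a gene, and 34 imprinted mouse genes were examined here by name across all 22 RNA-seq samples of a *Phf8* knockout study. Their Ensembl identifiers were looked up by symbol in the GENCODE M21 annotation, and 32 of the 34 had a row among the 39179 genes of the count tables. The M21 identifiers of *Snrpn* and *Kcnq1ot1* had no row there, and these 2 genes were not analysed here. All samples were labelled as B6x129SvJ mouse material, and in the KO samples the exons of the X-linked *Phf8* gene that encode an essential stretch of its catalytic JmjC domain were removed by Cre in targeted V6.5 ESC clones from which the mouse line was founded, so the deletion is not limited to a cell type. PHF8 is a demethylase that removes repressive methyl marks from histones. The groups were embryonic stem cells (ESCs, 2 WT and 2 KO), grown from blastocyst outgrowths on gelatin or feeder cells, neural progenitor cells (NPCs, 3 WT and 3 KO), taken from embryos at embryonic day 16.5 and kept as a monolayer, and the ventral striatum (STR) and prefrontal cortex (PFC) of animals aged 2 months (3 WT and 3 KO each). The NPC and ESC cultures can hold other cells besides those they are named for. The labels do not say whether cultures of a group were separate lines or which brain samples shared an animal, so p-values measure the spread between these samples, which may be partly technical.

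Most imprinted genes sit in clusters under an imprinting control region, a stretch of DNA that is methylated on the copy inherited from 1 parent only. The methylation decides which copy is read, often through a non-coding RNA or an insulator, and it is laid down in the germ line and kept through cell division. Many imprinted genes act in growth, the placenta and the brain: paternally expressed *Igf2* and *Peg3* and maternally expressed *H19* and *Cdkn1c* are textbook examples. Of the 34 genes, 21 are listed here as paternally and 11 as maternally expressed, and *Grb10* and *Gnas* as differing between promoters or tissues. For the other genes the list gives 1 parental copy, and whether this holds in each tissue was not tested. Counts per gene add both parental copies, so the values below are total levels and say nothing about which copy was read.

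The promoters of the genes examined were rich in CpG pairs, the target of DNA methylation. RefSeq promoter windows (300 bases each, from 250 before to 50 after a transcription start, GRCm38.p6) were matched for 26 of the 32 genes, giving 37 windows. *H19*, *Cdkn1c*, *Impact*, *Peg10*, *Rtl1* and *Sgce* had no window in the table. The median window of the matched genes held 16 CpG pairs at a GC content of 61.3%, against 7 CpG pairs and 52.7% over all 32851 windows. The hexamer TGCCGC, read on both strands and known as the core of the ZFP57 recognition motif, was present in a window of 9 of the 26 genes (34.6%), against 13.1% of the 27025 genes in the whole table. The letters TATAAA, read on both strands, were present for 6 of the 26 (23.1%) and for 15.7% of all genes. TGCCGC itself holds a CpG pair, and a gene with several windows has more places for a match. The shares were not adjusted for CpG content or for the number of windows per gene. A match is a description of the letters and not evidence of binding. The windows below, 1 each for 4 genes whose levels separate the samples in the next paragraphs, are written with CpG pairs in capitals, and for genes with several windows the one richest in CpG is shown.
*Igf2*, chr7:142658755-142659054, minus strand: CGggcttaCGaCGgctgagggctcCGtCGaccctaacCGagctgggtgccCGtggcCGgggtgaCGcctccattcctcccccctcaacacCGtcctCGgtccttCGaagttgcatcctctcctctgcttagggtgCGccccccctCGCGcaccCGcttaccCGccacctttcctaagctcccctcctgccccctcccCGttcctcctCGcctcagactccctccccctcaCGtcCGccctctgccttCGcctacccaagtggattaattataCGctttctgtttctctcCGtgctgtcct
*Peg3*, chr7:6730370-6730669, minus strand: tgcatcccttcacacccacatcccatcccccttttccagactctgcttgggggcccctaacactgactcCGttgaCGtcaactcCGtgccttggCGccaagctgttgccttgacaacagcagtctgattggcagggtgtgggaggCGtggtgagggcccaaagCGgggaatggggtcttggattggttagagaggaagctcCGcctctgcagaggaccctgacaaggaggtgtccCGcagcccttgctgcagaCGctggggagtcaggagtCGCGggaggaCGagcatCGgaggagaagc
*Grb10*, chr11:12037371-12037670, minus strand: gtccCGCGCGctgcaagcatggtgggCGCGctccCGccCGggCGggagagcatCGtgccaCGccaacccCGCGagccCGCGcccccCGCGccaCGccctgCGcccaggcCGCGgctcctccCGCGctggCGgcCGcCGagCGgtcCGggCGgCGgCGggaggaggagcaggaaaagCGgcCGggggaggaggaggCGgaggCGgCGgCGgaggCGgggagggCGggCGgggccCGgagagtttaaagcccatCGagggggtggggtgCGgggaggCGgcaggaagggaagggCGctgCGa
*Meg3*, chr12:109540746-109541045, plus strand: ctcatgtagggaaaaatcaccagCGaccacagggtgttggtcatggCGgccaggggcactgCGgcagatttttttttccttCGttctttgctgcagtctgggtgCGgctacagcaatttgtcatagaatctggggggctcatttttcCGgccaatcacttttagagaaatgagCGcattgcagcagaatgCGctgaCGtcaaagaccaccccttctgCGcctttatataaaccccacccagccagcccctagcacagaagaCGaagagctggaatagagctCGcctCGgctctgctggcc
They ran from 13 CpG pairs in the *Peg3* and *Meg3* windows and 24 in the *Igf2* window to 45 in the *Grb10* window. The *Peg3* window overlaps that of *Usp29*, a neighbour read in the other direction and also paternally expressed.

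Between 5898286 and 15539811 reads were counted on genes per sample, of which the genes examined took 0.157% to 0.172% in NPCs, 0.225% to 0.275% in ESCs, 0.351% to 0.370% in PFC and 0.420% to 0.566% in STR. *Phf8* itself was lower in KO than in WT samples of all 4 tissues, without overlap between genotypes. In CPM (counts scaled to library size, by TMM within a tissue) it stood at 59.3 and 54.9 in the WT and 13.5 and 19.5 in the KO ESC cultures. It passed an FDR of 0.05 in NPCs (log2 fold change -1.41, edgeR FDR = 0.0285) and PFC (-1.37, edgeR FDR = 0.00193) and not in ESCs or STR. Defining markers of each labelled tissue were present, and several libraries stood apart in other markers. ESC cultures with the replicate number 2 carried fibroblast markers, and NPC cultures with the number 2 were low in oligodendrocyte markers. KO STR sample 1 carried hypothalamic markers and was the lowest of the STR samples in PFC and STR markers. KO STR sample 2 carried meningeal markers. Values are given with the results below. The Y-linked gene *Ddx3y* was at 3.82 and 16.5 CPM in the KO and 70.9 and 62.6 CPM in the WT ESC cultures, and at 23.5 CPM in WT NPC culture 1 against 94.3 to 182 CPM in the other NPC cultures.

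The genes examined differed mainly between tissues. In bulk RNA, fewer cells of a type and less RNA per cell cannot be told apart. Levels across tissues and genes are given as RPKM (CPM normalised by TMM over all samples and divided by exon length in kilobases), as mean ± SD over WT samples (n = 2 for ESCs and n = 3 elsewhere). *Nap1l5*, a nucleosome assembly protein-like gene, was among the highest in brain at 126 ± 25.6 RPKM in PFC and 117 ± 12.6 RPKM in STR, and was at 0.598 ± 0.0744 RPKM in ESCs. *Nnat*, which encodes the membrane proteolipid neuronatin, led in NPCs at 145 ± 54.2 RPKM. The placental growth inhibitor *Phlda2* was at 52.8 ± 8.99 RPKM in ESCs and had 1 count over all 3 WT NPC cultures and 0 counts in all 12 brain samples. *Peg10* and *Rtl1*, which derive from retrotransposon Gag and Pol genes and are needed in the placenta, differed from each other: *Peg10* was at 52.4 ± 15.1 RPKM in ESCs and 29.1 ± 4.70 in STR, whereas *Rtl1* was highest in STR at 2.53 ± 0.871 RPKM.

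**Figure D1:**
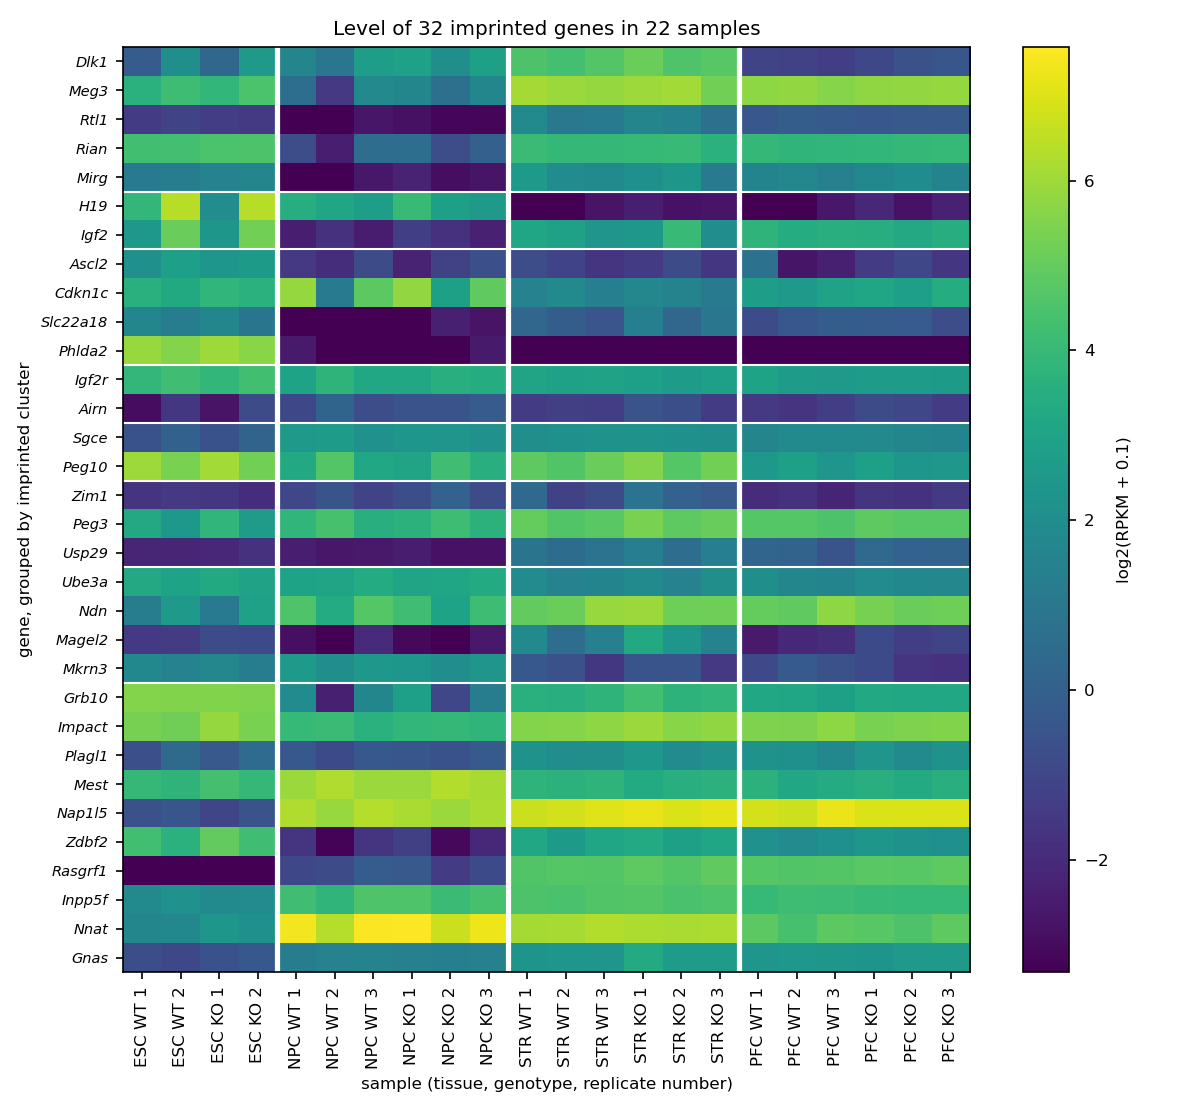
Colours give log2(RPKM + 0.1) for each of the 32 genes counted (rows, grouped by imprinted cluster) in each of the 22 samples (columns, by tissue, genotype and replicate number). *Phlda2* was at 0 counts in all brain samples and *Rasgrf1* at 0 counts in all ESC samples. Replicate 2 of the NPCs and of the ESCs differed from its neighbours in both genotypes for *Grb10* and for *H19*, respectively.

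Between WT ESCs and WT NPCs, 26 of the 32 genes differed in edgeR's quasi-likelihood test at an FDR under 0.05, 10 higher and 16 lower in NPCs. Across all genes tested 72.0% passed, 32.2% higher and 39.8% lower. None of the 11 genes listed as maternally expressed was called higher in NPCs and 8 were called lower. The 19 genes listed as paternally expressed divided into 9 higher and 7 lower. *Phlda2* was at 59.2 and 46.4 RPKM in the WT ESC cultures and at 0.0731, 0 and 0 RPKM in the WT NPC cultures, a ratio of 2140 (95% exact counting interval 384 to 84700). *Slc22a18*, a putative organic cation transporter in the same cluster, had 98 counts in the WT ESC cultures and 0 in the WT NPC cultures, at least 55.2-fold lower when 3 counts are taken as the floor over the group. *Igf2*, the growth factor, was at 5.57 and 33.8 RPKM in ESCs and at 0.0859, 0.194 and 0.0774 RPKM in NPCs, a log2 fold change of -7.46 ± 0.80 (SE here and for every fold change below, edgeR FDR = 1.9e-05). ESC values of *Igf2* differed widely between the cultures, but each lay above all NPC values.

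In the other direction, *Rasgrf1*, a Ras exchange factor of neurons, had 0 counts in ESCs and was at 0.415, 0.478 and 0.814 RPKM in the WT NPC cultures, at least 46.4-fold higher. *Nap1l5* was at 0.545 and 0.650 RPKM in ESCs and at 77.7, 60.1 and 83.1 RPKM in NPCs (log2 fold change 6.85 ± 0.30). *Nnat* was at 3.13 and 3.28 RPKM in ESCs and at 168, 82.9 and 184 RPKM in NPCs (log2 fold change 5.42 ± 0.38). For these 3 genes the WT groups did not overlap. Several values depended on single libraries. Without WT ESC culture 2, which held fibroblast markers at 3257 CPM against 142 CPM in culture 1, the log2 fold change of *H19* was -0.83 in place of -2.59 and that of *Igf2* was -5.63 in place of -7.46. In the same refit that of *Dlk1* was 2.23 and called in place of 0.57, that of *Airn* was 4.29 in place of 2.11, and *Peg3*, *Igf2r*, *Usp29* and *Magel2* were no longer called. Without WT NPC culture 2 that of *Cdkn1c* was 1.91 and called in place of 1.37. *Magel2* and *Usp29* also lost the call without WT ESC culture 1, as did *Airn*. Without WT NPC culture 3, the only one with counts of *Mirg* and *Rtl1*, the WT NPC group is at 0 for both.

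The *Dlk1-Dio3* cluster, in which *Dlk1* and *Rtl1* are read from the paternal and the non-coding *Meg3*, *Rian* and *Mirg* from the maternal copy, held 4 genes that were lower in NPCs than in ESCs and in PFC, and *Dlk1*, which was not. *Meg3* was at 12.3 and 18.3 RPKM in WT ESCs, at 1.44, 0.246 and 3.41 RPKM in NPCs and between 48.7 and 68.6 RPKM in the 6 WT brain samples. *Rian* was at 19.1 and 20.01 RPKM in ESCs, at 0.490, 0.0864 and 1.40 RPKM in NPCs and between 14.1 and 17.1 RPKM in brain. *Mirg*, host of many microRNAs, had 0, 0 and 6 counts in the WT NPC cultures and was at 2.93, 3.24 and 2.59 RPKM in PFC. From ESCs to NPCs *Rtl1*, *Meg3*, *Rian* and *Mirg* were called lower and *Dlk1* was not called (log2 fold change 0.57 ± 0.63, edgeR FDR = 0.44).

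From WT NPCs to WT PFC, 27 of the 32 genes were called, 15 higher and 12 lower. Of all genes 75.2% were called, 39.5% higher and 35.7% lower. *Mirg* (log2 fold change 6.91 ± 0.52) and *Igf2* (6.63 ± 0.78) had the largest fitted increases. The fitted value of *Mirg* rests on WT NPC culture 3, the one with counts, as does that of *Rtl1*, which had 0, 0 and 5 counts. *Igf2* was at 13.6, 10.6 and 11.2 RPKM in PFC. *Slc22a18* had 29 counts in PFC against none in NPCs, at least 13.2-fold higher. *H19* moved the opposite way: it had 771 counts in the WT NPC cultures and 1 in the WT PFC samples, a ratio of 567 (95% exact counting interval 101 to 22400). *Dlk1*, a Notch-family ligand of progenitor cells, was at 3.04, 1.84 and 6.86 RPKM in NPCs and at 0.371, 0.325 and 0.304 RPKM in PFC (log2 fold change -3.56 ± 0.72). *Mkrn3*, a zinc finger gene linked to the timing of puberty, was at 5.86, 4.08 and 5.53 RPKM in NPCs and at 0.434, 0.757 and 0.552 RPKM in PFC (log2 fold change -3.13 ± 0.32). *H19* and *Igf2*, neighbours that compete for the same enhancers on opposite parental copies, thus changed in opposite directions between these groups, which also differ in being cultured cells and dissected tissue. Leaving out single WT samples left 22 to 27 genes called, and *Peg3*, *Cdkn1c*, *Grb10* and *Airn* each lost the call in at least 2 of these 6 refits.

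WT PFC and WT STR differed in 7 of the 32 genes, all lower in PFC, where 12.3% of all genes were called, 5.51% higher and 6.79% lower. *Dlk1* was at 0.371, 0.325 and 0.304 RPKM in PFC and at 23.0, 19.8 and 25.1 RPKM in STR (log2 fold change -6.11 ± 0.73, edgeR FDR = 0.00070). *Magel2*, a Prader-Willi region gene that acts in the hypothalamus, was at 0.0716, 0.132 and 0.169 RPKM in PFC and at 3.46, 1.38 and 2.62 RPKM in STR (-4.37 ± 0.59). *Peg10* was at 5.54, 6.94 and 5.08 RPKM in PFC and at 28.8, 24.6 and 33.95 RPKM in STR (-2.35 ± 0.40). *Zim1*, *Rtl1*, *Nnat* and *Usp29* made up the rest, with log2 fold changes between -2.09 and -0.84. Markers of other tissue differed between these regions too: hypothalamic markers summed to 26.5 to 32.7 CPM in WT STR and 4.57 to 20.4 CPM in WT PFC, and choroid plexus markers to 85.3 to 91.1 CPM and 20.8 to 52.3 CPM. Their part in the differences was not tested. The KO samples called the same 7 genes lower in PFC, and *Inpp5f* besides, where 14.1% of all genes were called. Leaving out single WT libraries left 4 to 7 genes called, with 4 (*Dlk1*, *Magel2*, *Nnat* and *Peg10*) without STR sample 1, PFC sample 2 or PFC sample 3. With only the WT samples of these 2 regions in the fit, 14 of 28 genes passed, the 7 named among them, and *Cdkn1c* and *Igf2* were then called higher in PFC, while 24.4% of all genes passed in that fit.

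Positions are those of GRCm38. *H19* (chr7:142575529-142578143), *Igf2* (chr7:142650766-142666816), *Ascl2* (chr7:142966829-142969264), *Cdkn1c* (chr7:143458339-143461050), *Slc22a18* (chr7:143473736-143499334) and *Phlda2* (chr7:143501545-143503150) follow each other at the end of chromosome 7. *Ascl2*, a transcription factor of the trophoblast, was at 4.33 and 7.07 RPKM in WT ESCs and at no more than 1.64 RPKM in the WT samples of the other tissues. It was called lower in NPCs (log2 fold change -4.28 ± 0.82), as were *Phlda2* and *Slc22a18*, while *Cdkn1c* was not. Within this stretch the genes therefore did not share 1 pattern.

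The *Peg3* domain holds *Zim1* (chr7:6671269-6696450), *Peg3* (chr7:6703892-6730431) and *Usp29* (chr7:6730578-6967219). *Usp29*, a ubiquitin protease gene whose promoter window overlaps that of *Peg3*, was at 0.0861, 0.0615 and 0.0694 RPKM in WT NPCs and at 1.08, 1.02 and 0.605 RPKM in PFC (log2 fold change 3.62 ± 0.25). *Peg3* was at 15.5 ± 4.72 RPKM in NPCs and 25.0 ± 1.47 in PFC, a smaller difference (0.67 ± 0.23) that was also called. The maternally expressed *Zim1* was lower in PFC than in NPCs (-1.49 ± 0.48). In the Prader-Willi/Angelman region *Ube3a* (chr7:59228750-59311536), *Ndn* (chr7:62346569-62350262), *Magel2* (chr7:62377010-62381640) and *Mkrn3* (chr7:62417593-62420139) also differed from each other. From NPCs to PFC *Ube3a* and *Mkrn3* were called lower, and *Ndn* (0.92 ± 0.43) and *Magel2* (0.88 ± 0.83) were not called.

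Of the other genes, *Gnas* (chr2:174284320-174346744) was called higher at both steps, by 2.41 ± 0.15 from ESCs to NPCs and by 1.003 ± 0.11 from NPCs to PFC, on the log2 scale. It was at 0.471 ± 0.0707 RPKM in WT ESCs, 2.62 ± 0.265 in WT NPCs and 5.32 ± 0.258 in WT PFC. These counts are not split by promoter and may lack reads shared with *Nespas*, so they are not the level of a single transcript. *Sgce* (chr6:4674350-4747207), encoding epsilon-sarcoglycan, starts beside *Peg10* (chr6:4747306-4760517) and went the other way in the first step: *Sgce* was higher in NPCs than in ESCs (2.80 ± 0.22) and *Peg10* lower (-1.90 ± 0.41). *Mest* (chr6:30723547-30748465) was at 15.1 and 13.6 RPKM in ESCs, at 61.0, 78.0 and 60.8 RPKM in NPCs and at 12.8, 8.82 and 10.4 RPKM in PFC. *Inpp5f*, a phosphoinositide phosphatase gene, was higher in NPCs than in ESCs (2.15 ± 0.20), and *Impact*, *Zdbf2* and *Grb10* were lower in NPCs than in ESCs and higher in PFC than in NPCs. *Plagl1*, a zinc finger regulator of growth, was called higher in PFC than in NPCs (2.71 ± 0.29). *Igf2r* was called lower at both steps, and its antisense partner *Airn* was called higher in NPCs than in ESCs and lower in PFC than in NPCs, with means of 0.133 to 0.644 RPKM.

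The single gene that overlaps *Snrpn* in the tables, *Gm38393* (ENSMUSG00000000948, chr7:59974149-60005064, minus strand), shares 589 of the 2159 exon bases of *Snrpn* (27.3%) and all 216 of *Snurf*. Taken by its coordinates and not counted among the genes above, it was lowest in WT NPCs at 9.99 ± 3.14 RPKM, against 23.4 ± 2.13 RPKM in WT ESCs, 34.2 ± 7.71 RPKM in WT PFC and 30.3 ± 2.46 RPKM in WT STR.

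The spread between cultures of one genotype was a second feature of these genes. It was measured as the SD of log2(CPM + 0.5) within genotype, pooled over WT and KO. Among ESC cultures the median SD was 0.212 for the 30 genes tested and 0.162 over all 15080 genes tested, and 24 of the 30 lay above that median. In NPCs the median was 0.442 for 26 genes against 0.183 over 14351 genes, and 25 of the 26 lay above. In STR 21 of 29 genes lay above the median of all genes and in PFC 18 of 28. The widest 5% of all genes held 4 of the 30 genes in ESCs (13.3%), 7 of the 26 in NPCs (26.9%), 6 of the 29 in STR (20.7%) and none in PFC. These are descriptions, and with 2 or 3 cultures a group each SD is imprecise. The SD also includes counting error, which is larger for genes with few reads.

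In ESCs *H19* had the widest spread (SD 2.55), followed by *Igf2* (1.96), *Dlk1* (1.62) and *Ndn* (1.11), the 4 in the widest 5%. *H19* was at 30.3 and 183 CPM in WT cultures 1 and 2 and at 8.16 and 183 CPM in the KO cultures. *Igf2* was at 26.9 and 170 CPM in the WT and at 25.7 and 194 CPM in the KO cultures. *Dlk1* was at 3.81 and 20.9 CPM in the WT and at 5.44 and 28.1 CPM in the KO cultures. In each of these genes culture 2 was high in both genotypes, and the difference between cultures was larger than that between genotypes. *Ndn*, encoding the neuronal growth suppressor necdin, was at 7.12 and 18.6 CPM in the WT and at 6.69 and 24.0 CPM in the KO cultures. *Plagl1*, the next widest among the tested genes, was at 3.47 and 8.78 CPM in the WT and at 4.78 and 9.09 CPM in the KO cultures. *Airn*, the antisense RNA of the *Igf2r* cluster, was too low to be tested but had an SD of 0.973, with 0.0847 and 0.751 CPM in the WT and 0.147 and 1.47 CPM in the KO cultures. *Peg3*, *Peg10* and *Zdbf2* went the other way: *Peg3*, a zinc finger gene, was at 105 and 63.4 CPM in the WT and at 159 and 75.8 CPM in the KO cultures. *Grb10*, an adaptor that restrains growth factor signalling, differed little, at 361 and 359 CPM in the WT and 344 and 351 CPM in the KO cultures.

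Culture 2 exceeded culture 1 by more than 2-fold in both genotypes for 4 of the 30 genes (13.3%), the 4 in the widest 5% named above, and such a difference in either direction was present in 6.41% of all genes. The list of 8 fibroblast markers moved with it: its summed level was 142 and 132 CPM in culture 1 of WT and KO and 3257 and 3981 CPM in culture 2, and all 8 markers were detected in culture 2 and in WT culture 1. *Col1a1*, its most abundant member, was at 1427 and 1758 CPM in culture 2 against 68.5 and 65.4 CPM. The list of ESC markers was at 5125 and 4985 CPM in culture 1 and at 4644 and 4497 CPM in culture 2. Other lists were also higher in culture 2. NPC markers were at 818 and 766 CPM in culture 1 and at 1840 and 1985 CPM in culture 2. Meningeal markers, which share *Col1a1*, were at 74.0 and 70.1 CPM and at 1468 and 1808 CPM. The part of fibroblasts or of other cells in these differences was not tested. Without the cultures numbered 2 each genotype has 1 culture, and no spread can be given.

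**Figure D2:**
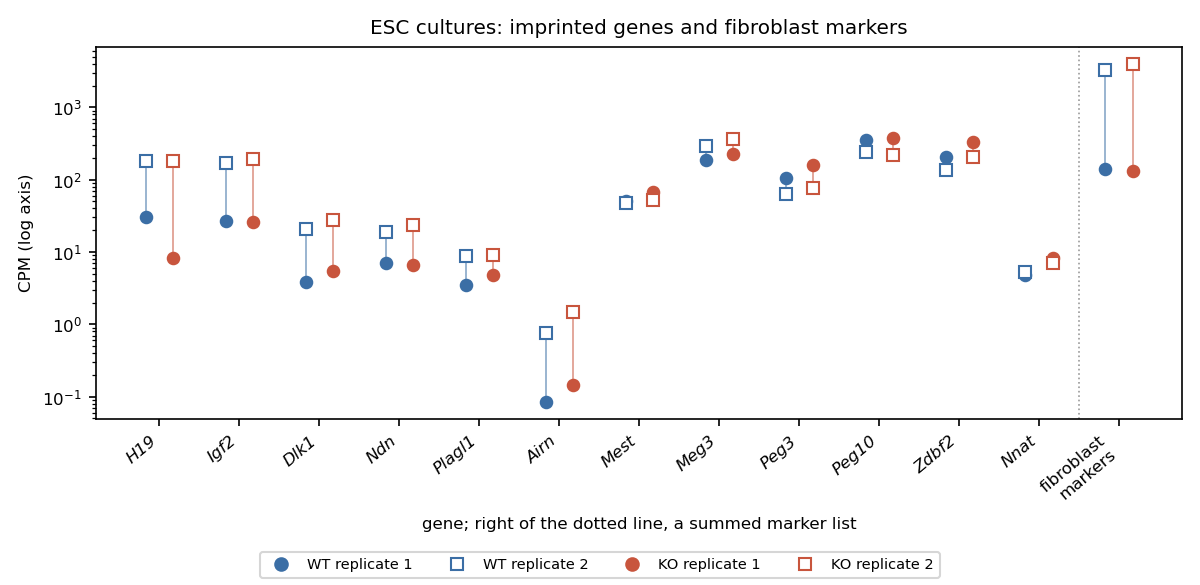
CPM on a log axis in each of the 4 ESC cultures (blue WT, red KO; filled circles replicate 1, open squares replicate 2) for 12 imprinted genes and, right of the dotted line, the sum of 8 fibroblast markers. *H19*, *Igf2*, *Dlk1* and *Ndn* were higher in replicate 2 of both genotypes, as were the fibroblast markers (3257 and 3981 CPM against 142 and 132), and *Peg3*, *Peg10* and *Zdbf2* were lower.

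In NPCs the 5 widest were *Grb10* (SD 2.30), *Cdkn1c* (2.00), *Rian* (1.38), *Meg3* (1.36) and *Zdbf2* (1.29). *Grb10* was at 29.2, 0.739 and 24.9 CPM in WT cultures 1 to 3 and at 55.4, 3.22 and 18.6 CPM in the KO cultures. *Cdkn1c*, encoding the cell cycle inhibitor p57, was at 102, 3.78 and 51.3 CPM in the WT and at 99.1, 13.1 and 54.0 CPM in the KO cultures. *Zdbf2* was at 2.28, 0.0821 and 2.40 CPM in the WT and at 3.56, 0.210 and 1.55 CPM in the KO cultures, with 1 and 3 reads in culture 2 of WT and KO. Culture 2 was the lowest of its genotype in all 3 genes, and both lay below the other 4 cultures. *Meg3* was at 22.7, 3.94 and 54.2 CPM in the WT and at 48.4, 24.7 and 49.0 CPM in the KO cultures, so that KO culture 2 stood above WT culture 1. *Rian*, from the same cluster, was at 7.77, 1.40 and 22.4 CPM in the WT and at 22.7, 7.91 and 14.8 CPM in the KO cultures. *Peg10* moved the opposite way, at 56.0, 150 and 53.9 CPM in the WT and 48.0, 111 and 68.6 CPM in the KO cultures.

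Because same-numbered NPC cultures deviated together over all genes, the replicate number was tested as a term beside genotype, a test chosen after these values had been seen. It was called for 11 of the 26 genes (42.3%) and for 13.9% of all genes. The smallest p-values belonged to *Ndn*, which was at 75.8, 34.2 and 83.6 CPM in the WT and 61.3, 25.6 and 58.6 CPM in the KO cultures (edgeR FDR = 0.0037), and to *Peg3*, which was at 164, 245 and 136 CPM in the WT and 150, 216 and 150 CPM in the KO cultures (edgeR FDR = 0.013). *Zdbf2*, *Nnat*, *Nap1l5*, *Cdkn1c* and *Grb10* were also called and were lower in culture 2 of both genotypes. *Peg10* and the hydrolase gene *Mest* were called and were higher there, and *Ube3a*, a ubiquitin ligase, and *H19* completed the list. *H19* was at 23.5, 18.1 and 14.3 CPM in the WT and at 34.4, 15.5 and 12.7 CPM in the KO cultures, so that culture 1 and not culture 2 stood apart. Culture 2 was more than 2-fold below the mean of the others in both genotypes for 5 of the 26 genes, and more than 2-fold above for none. Such a difference in either direction was present in 19.2% of the genes examined and in 3.38% of all genes.

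Oligodendrocyte markers moved with culture 2. Their summed level was 194 and 363 CPM in culture 2 of WT and KO against 1667 to 2743 CPM in the other 4 cultures, and 2 of the 6 markers had 0 counts in WT culture 2. Astrocyte markers stood at 2621 and 3467 CPM there against 4169 to 5917 CPM, and the list of NPC markers at 6515 and 7459 CPM against 8278 to 8661 CPM. The part of these cell types in the differences was not tested. Without the cultures numbered 2, the median SD of the 26 genes was 0.203 against 0.124 over all genes, 20 of the 26 lay above that median and 9 were in the widest 5%.

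**Figure D3:**
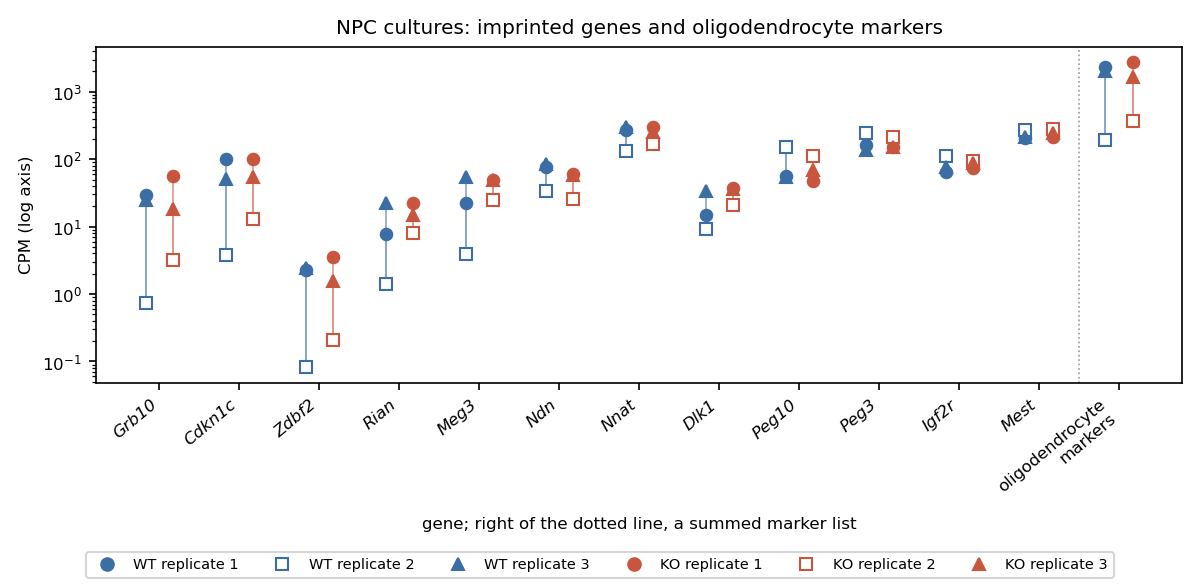
CPM on a log axis in each of the 6 NPC cultures (blue WT, red KO; circles replicate 1, open squares replicate 2, triangles replicate 3) for 12 imprinted genes and, right of the dotted line, the sum of 6 oligodendrocyte markers. Replicate 2 of both genotypes was low for *Grb10*, *Cdkn1c*, *Zdbf2*, *Ndn* and *Nnat* and for the oligodendrocyte markers (194 and 363 CPM against 1667 to 2743), and high for *Peg10* and *Peg3*.

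In STR the genes in the widest 5% were *Igf2*, *Magel2*, *Zim1*, *Mkrn3*, *Mirg* and *Rtl1*, of which *Mkrn3* had only 5 to 18 reads per sample. *Igf2* was at 55.0, 49.5 and 33.3 CPM in the WT and at 36.5, 110 and 26.0 CPM in the KO samples. The high value belonged to KO sample 2, in which the summed meningeal markers reached 146 CPM against 34.9 to 63.5 CPM in the other STR samples. *Magel2* was at 18.5, 7.33 and 14.0 CPM in the WT and at 51.7, 27.7 and 15.2 CPM in the KO samples. The highest value belonged to KO sample 1, in which hypothalamic markers summed to 257 CPM against 26.5 to 58.8 CPM, all 10 of them detected. The hypothalamic transcription factors *Otp* and *Sim1* were at 20.6 and 6.18 CPM in KO sample 1. In the other STR samples *Otp* did not exceed 0.577 CPM and *Sim1* had no count. KO sample 1 was also the lowest STR sample in summed PFC markers (280 against 634 to 850 CPM) and STR markers (1840 against 2126 to 2493 CPM). *Meg3* was at 784 CPM in KO sample 3 and between 1201 and 1430 CPM in the others. In that library 9.38% of reads fell outside annotated genes, against 11.3% to 15.4%. The part of these features in the gene levels was not tested.

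**Figure D4:**
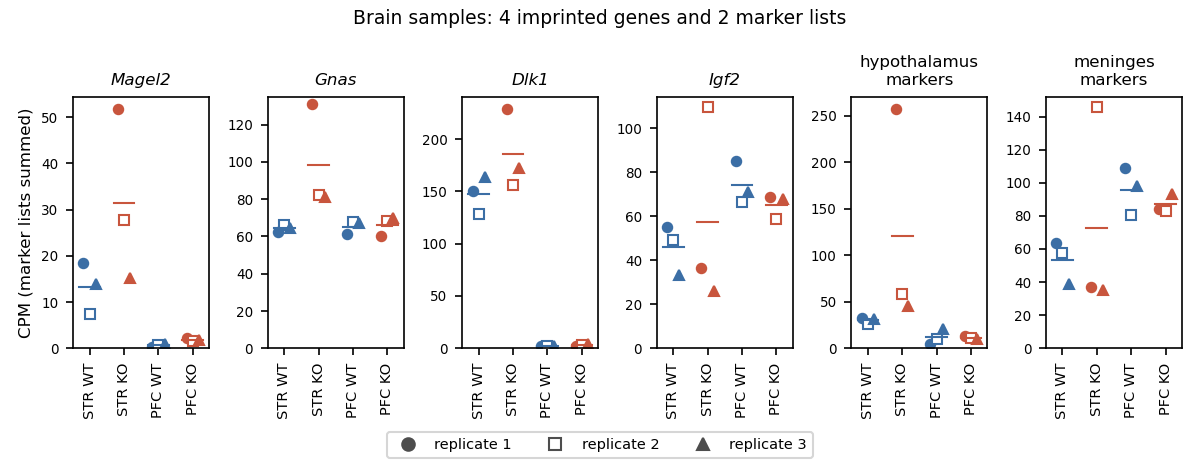
CPM in each brain sample for *Magel2*, *Gnas*, *Dlk1* and *Igf2* and the summed CPM of 10 hypothalamic and 8 meningeal markers (blue WT, red KO; symbols give the replicate number, bars the mean of 3 samples). In STR, KO sample 1 held the highest *Magel2*, *Gnas*, *Dlk1* and hypothalamic marker levels and KO sample 2 the highest *Igf2* and meningeal marker levels, and *Dlk1* was low in all PFC samples.

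The main test of KO against WT was edgeR's quasi-likelihood test with its filter on low counts and no replicate block. In it no gene examined differed at an FDR under 0.05 in any of the 4 tissues. Of the genes examined 30 were tested in ESCs, where 0% of all genes were called, 26 in NPCs (0.00697%), 29 in STR (0%) and 28 in PFC (0.638%). DESeq2 called none of those for which it gave an adjusted p (23 of the 28 in PFC). Without the filter and with edgeR's exact test *Magel2* was called in PFC, where 1.57% and 2.45% of all genes were called. An unadjusted p under 0.05 was held by 1 gene in ESCs (1.13% of all genes), 0 in NPCs (3.03%), 8 in STR (8.70%) and 4 in PFC (11.2%). The genes not tested were too low for edgeR's expression filter, namely *Airn* and *Rasgrf1* in ESCs, *Rtl1*, *Magel2*, *Mirg*, *Phlda2*, *Slc22a18* and *Ascl2* in NPCs, *H19*, *Phlda2* and *Ascl2* in STR, and these 3 with *Airn* in PFC.

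**Figure D5:**
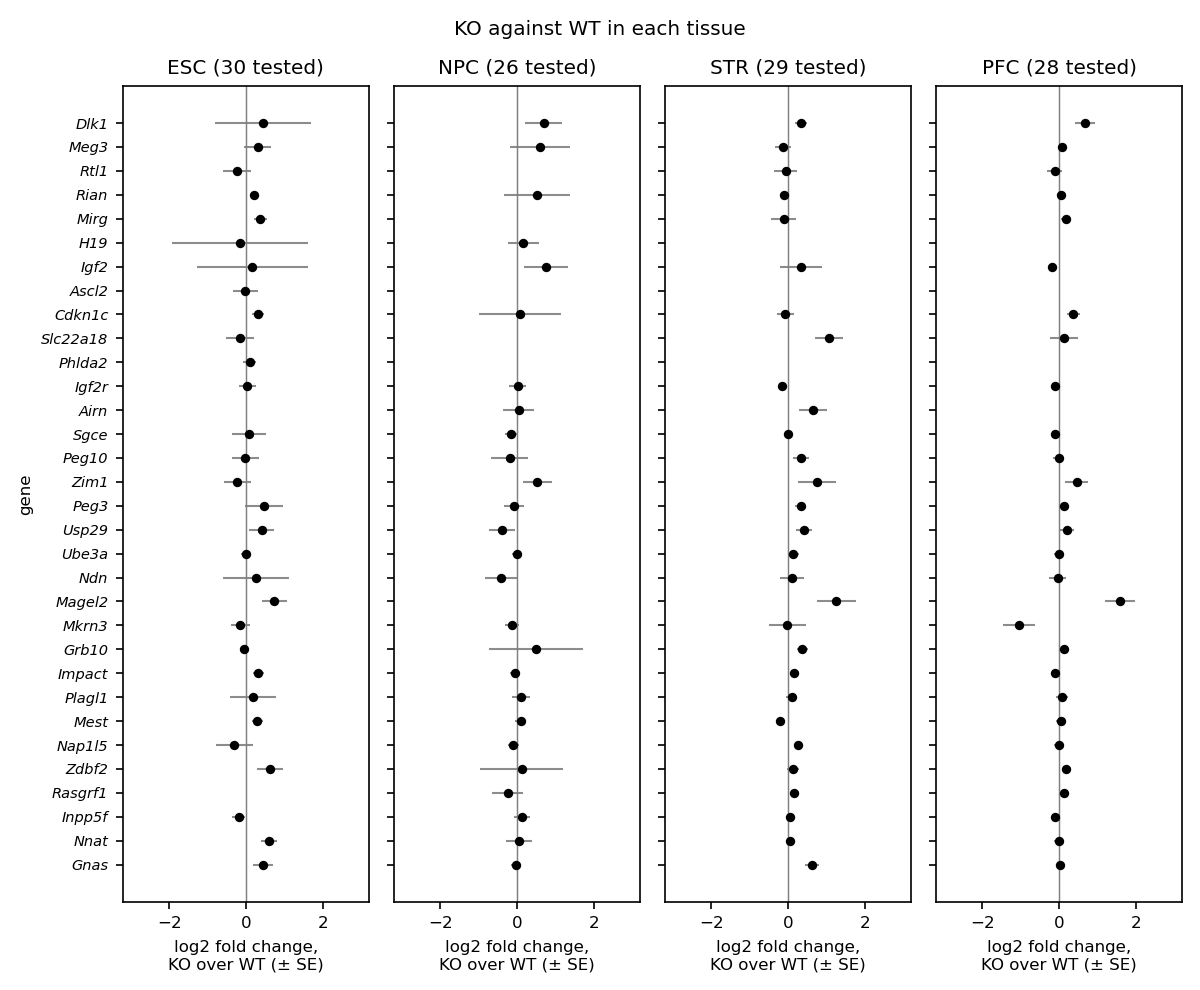
Points give the log2 fold change of KO over WT and bars its standard error (edgeR) for each gene that passed the expression filter in a tissue. None passed an FDR of 0.05, the bars were widest for *H19*, *Igf2* and *Dlk1* in ESCs and for *Grb10*, *Cdkn1c* and *Zdbf2* in NPCs, and *Magel2* was on the positive side in ESCs, STR and PFC and was not tested in NPCs.

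In ESCs the median log2 fold change of the 30 genes was 0.18, against 0.01 over all genes, with 19 positive and 11 negative. The Y-linked *Ddx3y* also separated the genotypes here (3.82 and 16.5 CPM in the KO against 70.9 and 62.6 CPM in the WT cultures). The labels do not give the sex of the cultures, and a difference in their Y-linked content and genotype cannot be told apart. *Nnat* had the smallest p, at 4.83 and 5.25 CPM in the WT and 8.24 and 7.01 CPM in the KO cultures (log2 fold change 0.60 ± 0.21, edgeR unadjusted p = 0.042, FDR = 1). *Magel2* was at 1.02 and 1.13 CPM in the WT and at 1.76 and 1.82 CPM in the KO cultures (0.74 ± 0.33). *Impact*, a translational regulator of neurons, was at 175 and 168 CPM in the WT and at 244 and 186 CPM in the KO cultures (0.33 ± 0.15). KO values lay above WT values without overlap for 9 of the 30 genes and below for 1, where 11.4% and 12.4% of all genes did so. The groups of 2 against 2 gave a standard error of 1.77 for *H19*, whose fold change of -0.15 is thus not informative at this number of cultures. With the replicate number as a block, 8 of the 30 genes (26.7%) were called, all higher in KO, where 3.4% of all genes were called. That fit leaves 1 residual degree of freedom, and the labels do not say that the numbers pair the cultures.

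In NPCs the median log2 fold change was 0.05 and no gene had separate genotypes, against 3.79% above and 4.46% below over all genes. The smallest p-values belonged to *Dlk1* (log2 fold change 0.69 ± 0.48), at 15.0, 9.19 and 34.2 CPM in the WT and 36.8, 21.2 and 36.5 CPM in the KO cultures, to *Zim1*, at 2.78, 4.35 and 2.60 CPM in the WT and 3.63, 7.07 and 3.30 CPM in the KO cultures, and to *Igf2*, at 0.428, 0.985 and 0.390 CPM in the WT and 1.55, 0.981 and 0.492 CPM in the KO cultures. WT and KO values overlapped in all 3 genes. With the replicate number as a block, no gene was called in NPCs either.

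In STR 21 of the 29 genes had positive and 8 negative fold changes, with a median of 0.14 against 0.00 over all genes. Counts of *Gnas* are not split by promoter and may lack reads shared with *Nespas*. They therefore do not give the level of its transcript for the stimulatory G protein alpha subunit. *Gnas* was at 62.4, 66.1 and 64.6 CPM in the WT and at 131, 82.1 and 81.4 CPM in the KO samples (log2 fold change 0.62 ± 0.18, edgeR unadjusted p = 0.0077, FDR = 0.41). All KO values lay above all WT values, and the change was 0.35 ± 0.09 without KO sample 1. *Slc22a18* was at 2.19, 1.60 and 1.24 CPM in the WT and at 4.89, 2.18 and 3.61 CPM in the KO samples (1.07 ± 0.37). *Nap1l5* was at 224, 242 and 276 CPM in the WT and at 320, 270 and 296 CPM in the KO samples (0.26 ± 0.10). These genotypes overlapped for both genes. *Grb10*, *Peg3*, *Dlk1* and *Magel2* also had positive values with an unadjusted p under 0.05, and *Igf2r*, the receptor that clears IGF2, a negative one (log2 fold change -0.17 ± 0.07) with separate genotypes. *Gnas* and *Igf2r* were the only genes with separate genotypes, 1 in each direction, where 6.89% and 6.43% of all genes had them.

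Without KO sample 1, the library with hypothalamic markers, 16 of the 29 genes were positive and 13 negative, their median was 0.08 and 1 gene, *Gnas*, kept an unadjusted p under 0.05. The number with such a p was also lower without WT sample 2, at 2 genes, and without WT sample 3, at 4. Leaving out the other STR samples in turn gave medians from 0.08, without WT sample 2, to 0.23, without KO sample 2. Hypothalamic markers summed to at least 45.3 CPM in all 3 KO samples against at most 32.7 CPM in the WT samples, and choroid plexus markers to 103 to 151 CPM against 85.3 to 91.1 CPM, so both lists separated the genotypes. Astrocyte markers (1030 to 1112 against 970 to 1009 CPM) and ESC markers (85.7 to 98.3 against 72.8 to 82.3 CPM) were also higher in all KO samples. Red blood cell markers were lower in all KO samples (34.8 to 47.0 against 48.3 to 56.3 CPM). The part of these lists was not tested. *Igf2* went from 0.34 to -0.55 on the log2 scale without KO sample 2, the library with meningeal markers.

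In PFC the 28 genes had a median log2 fold change of 0.05, against -0.02 over all genes, with 17 positive and 11 negative. *Magel2* was at 0.361, 0.674 and 0.865 CPM in the WT and at 2.23, 1.55 and 1.87 CPM in the KO samples (log2 fold change 1.59 ± 0.39, edgeR unadjusted p = 0.0014, FDR = 0.099). All 3 KO values lay above all 3 WT values. Without a filter on low counts its FDR was 0.039 and with edgeR's exact test 0.023, while DESeq2 gave it no adjusted p. Leaving out single samples gave FDRs from 0.087 to 0.39, and the 6 samples held 3 to 18 reads of it each. *Mkrn3*, a neighbour of *Magel2*, was at 1.20, 2.12 and 1.56 CPM in the WT and at 1.24, 0.598 and 0.533 CPM in the KO samples (-1.05 ± 0.41, FDR = 0.35). *Dlk1* was at 2.29, 2.02 and 1.90 CPM in the WT and at 2.60, 3.35 and 3.998 CPM in the KO samples (0.66 ± 0.26, FDR = 0.35). *Cdkn1c* was at 14.8, 13.2 and 17.1 CPM in the WT and at 18.6, 15.8 and 23.6 CPM in the KO samples (0.37 ± 0.16). KO values lay above WT values for 5 of the 28 genes (*Magel2*, *Dlk1*, *Peg3*, *Rasgrf1* and *Zim1*) and below for none, where 7.63% and 9.42% of all genes did so. Hypothalamic markers summed to 9.46 to 13.5 CPM in the KO and 4.57 to 20.4 CPM in the WT PFC samples, so the groups overlapped. Other lists separated the genotypes in PFC: oligodendrocyte markers summed to 1850 to 2476 CPM in the WT and 1512 to 1616 CPM in the KO samples, astrocyte markers to 1026 to 1124 and 940 to 996 CPM, and red blood cell markers to 49.7 to 67.97 and 41.0 to 42.1 CPM. Lists of ESC, NPC and early lineage markers were also lower in all KO samples. Their part in the values was not tested.

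The effect of genotype did not pass the threshold for a difference between PFC and STR, or between ESCs and NPCs, for any of the genes tested (29 and 32), where 0.00624% and 0% of all genes did. The 32 include 2 genes too low to be tested in ESCs alone (*Rasgrf1*, with 0 counts there, and *Airn*) and 6 too low in NPCs alone. For these genes the test can say little. The smallest p was that of *Gnas* between the brain regions (difference in log2 fold change -0.57 ± 0.21, edgeR unadjusted p = 0.017, FDR = 0.65), and it was the single gene with an unadjusted p under 0.05, which 6.41% of all genes had for the brain regions and 1.49% for the cell types.

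Of 20 factors that establish or keep imprints, none differed between KO and WT in any tissue at an FDR under 0.05. From WT ESCs to WT NPCs 14 of the 20 were called lower and 1 higher, where 39.8% and 32.2% of all genes were. From NPCs to PFC 15 were called lower and 0 higher, against 35.7% and 39.5%. *Zfp57*, the zinc finger protein that guards imprinted methylation, was at 534 and 604 CPM in the WT ESC cultures. Its log2 fold change from ESCs to NPCs was -3.998 ± 0.32. *Dnmt3l*, the cofactor of germ-line methylation, had a log2 fold change of -11.50 ± 0.37, and *Trim28*, the corepressor that ZFP57 recruits, of -2.68 ± 0.10. *Tet3*, an enzyme that oxidises methylcytosine, was the one called higher, by 2.47 ± 0.21.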

How the data were processed

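RNA-seq counts per gene were analysed in 22 samples, grouped by the labels. The authors deposited raw counts (HTSeq on STAR alignments to mm10, Ensembl release 75), without normalization. The submitters' processing notes also name CASAVA 1.7. The deposited ESC and NPC tables are named as not stranded, and the brain setting is not given in the sources used here. *Igf2r* and *Airn*, *Gnas* and *Nespas*, and *Mest* and *Copg2* may therefore share or lose reads. Counts that are not stranded also include any reads from the opposite strand. This applies to *Rtl1*, on the minus strand between *Meg3* and *Rian* on the plus strand, among others. Positions and exon lengths came from GENCODE M21 (37607 of 39179 identifiers matched, 99.709% of counts).

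Genotypes were tested separately in every tissue by edgeR 4.0.16 (R 4.3.3; quasi-likelihood, robust, TMM, filterByExpr, no replicate block), tissues over all 11 WT samples, with Benjamini-Hochberg FDR under 0.05 over all genes. DESeq2 1.42.0 was an alternative. Same-numbered WT and KO cultures deviated together in NPCs (r = 0.584, 0.721 and 0.538) and in ESCs (r = 0.888 for both numbers, as 2 cultures give a single deviation). The labels do not say that the numbers pair the cultures. Replicates differed beyond counting error (chi-square per degree of freedom 1.89 to 40.5). Intervals on count ratios are exact and cover counting error only. The tests were first tried on simulated counts with known changes, 2-fold in 200 genes of at least median level. The genotype test recovered 19% of these in ESCs, 93% in NPCs and 100% in STR and in PFC. A result of no call in ESCs therefore says little about changes of that size. The simulated spread of each gene followed the trend over genes of similar level. In every tissue the shares therefore do not carry over to genes with a wider spread or a lower level, among them several of those examined. *Phf8*, at means of 53.6 CPM in the WT and 20.6 CPM in the KO STR samples, was not called there. Alternatives were other size factors, filters, tests and blocks, and leaving out samples.

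Values in full are given for the 3 genes with the smallest p in each KO comparison, the 5 with the widest spread in ESCs and in NPCs, and the 3 called genes with the largest change in each direction between WT tissues. *Phf8*, the targeted gene, is also given. Genes outside this rule were named after their values were seen. Genes and lists were chosen with earlier results of these data known.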

Additional observations from a re-analysis of the deposited data

How the results depend on the processing

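Counts of genes called between KO and WT stayed at 0 under every alternative in NPCs and STR, among them DESeq2, RLE size factors, other filters and leaving out each sample, as did both tests of a difference in genotype effect. In ESCs the replicate block called 8 of 30 genes (26.7%), all higher in KO, and 3.4% of all genes (*Peg3*, *Meg3*, *Impact*, *Zdbf2*, *Dlk1*, *Mest*, *Nnat* and *Rian*). ESC cultures, like the NPC cultures, share only their numbers, with r = 0.888 between the deviations of 2 pairs, and the ESC block leaves 1 residual degree of freedom. In STR (r from -0.021 to 0.135) and PFC (r from -0.0321 to 0.0614) the block called none. In PFC no filter and the exact test each called 1 gene, *Magel2*. Between WT PFC and STR the 7 genes became 14 with these 2 groups only (24.4% of all genes) and 16 with the replicate block (34.7%), whose numbers are not shown to pair samples, and 4 to 7 when single WT samples were left out. Between the other WT tissues, leaving out single samples gave 23 to 27 (ESCs to NPCs) and 22 to 27 (NPCs to PFC). The median SD in NPCs was between 0.203 and 0.483 when a replicate number was left out. The causes were not tested. For 37 fold changes of named genes, 412 refits gave no reversal, 4 passed the threshold that the value as reported did not, and 12 lost it. Outside these 37, *Igf2* in STR went from 0.34 to -0.55 on the log2 scale without KO sample 2, called in neither fit. The number of samples, above all 2 against 2 ESC cultures, limits precision, and low genes such as *Magel2* in PFC rest on few reads.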

Other observations

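Among 40 other imprinted genes that were not on the list examined, none differed between KO and WT at an FDR under 0.05 in any tissue, with 28, 25, 31 and 29 of them tested in ESCs, NPCs, STR and PFC. *Htr2a* is among these other genes and was thus not called in PFC. The paper reports higher *Htr2a* in the KO prefrontal cortex, by RNA-seq and by RT-qPCR in further mice. Calls in PFC depend on the test: the main fit called 98 of all genes and edgeR's exact test 376. The absence of a call for *Htr2a* is therefore not evidence against that report. Between WT tissues 36 of the other imprinted genes were tested. From ESCs to NPCs 10 were called higher and 15 lower, where 32.2% and 39.8% of all genes were. *Dio3*, the deiodinase at the end of the *Dlk1-Dio3* cluster, had a log2 fold change of -7.07 ± 0.61 (SE) from ESCs to NPCs and of 5.30 ± 0.69 from NPCs to PFC, the same directions as *Meg3*, *Rian* and *Mirg* had. *Peg12*, from the Prader-Willi region, had 2.67 ± 0.28 and -7.69 ± 0.38. Between PFC and STR 5 of the 36 were called, all lower in PFC, where 6.79% of all genes were called lower, and of these *Calcr*, the calcitonin receptor, had the largest change (-6.60 ± 0.57) and *Dio3* a change of -2.61 ± 0.34.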
